A study of Mus musculus with 30 samples.

Results

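Tumors grown in formerly obese mice on intermittent calorie restriction (DIO-ICR, 6 tumors) were set against tumors grown in mice kept obese by a high-fat diet (DIO-HFD, 6 tumors). These are 12 of the 30 tumors that were arrayed, chosen by the group named in their labels, and 19505 genes were compared. All mice were female C57BL/6NCrl, and all carried E0771 cells, a line derived from a mammary tumor of a C57BL/6 mouse and used as a model of triple-negative breast cancer. DIO-ICR mice had been made obese on a diet with 60% of its energy as fat, had sham surgery, and then lost weight on a weekly cycle of mildly restricted days and nonconsecutive days of severe restriction on a high-protein diet. DIO-HFD mice had the same fattening diet and sham surgery and stayed on the high-fat diet. Of the groups used for direct comparison, DIO-CCR mice lost weight by daily calorie restriction after sham surgery. DIO-VSG mice lost weight by vertical sleeve gastrectomy followed by a low-fat diet. CON-LFD mice were kept on a low-fat diet throughout, had sham surgery and were never fattened. Each of these groups had 6 tumors. At 25 weeks on the assigned diets each mouse received E0771 cells in its 4th mammary fat pad, when body weights were stable. Each tumor came from a mouse with a number of its own. Food amount, dietary fat and protein, body weight and tumor mass cannot be told apart between the groups. The authors report smaller tumors in DIO-ICR and DIO-CCR mice than in the other groups. The sources used here do not give the day of the weekly feeding cycle on which tumors were taken.

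Calorie restriction lowers circulating insulin, leptin and glucose and makes fat tissue release its lipid, and in mice obesity is known to weaken tumor-killing lymphocytes. Natural killer (NK) cells and cytotoxic T cells kill through granzymes and perforin and secrete interferon gamma, which makes nearby cells produce chemokines such as CXCL9 and antigen-presenting molecules. Tumor cells short of amino acids start a program driven by the factor ATF4, which raises amino acid transporters and synthetic enzymes. In a whole tumor, fewer cells of a type and less RNA per cell cannot be told apart.

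Levels are given as log2 intensities, a scale on which equal differences are equal folds. A gene passed where its limma p, adjusted over all 19505 genes, was under 0.05. In DIO-ICR tumors 57 genes rose and 33 fell, which is 90 in all, or 0.461% of the genes tested (0.292% higher and 0.169% lower). At an unadjusted p under 0.05 there were 2105 genes, 937 higher and 1168 lower, where 975 would be given by chance. The median difference over all genes was -0.03, with 44.2% of genes above 0. Every DIO-ICR tumor lay above every DIO-HFD tumor for 106 genes (0.543%) and below for 95 (0.487%). Of the 90 genes that passed, 60 had no overlap between the groups, 40 of them higher and 20 lower.

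**Figure D1:**
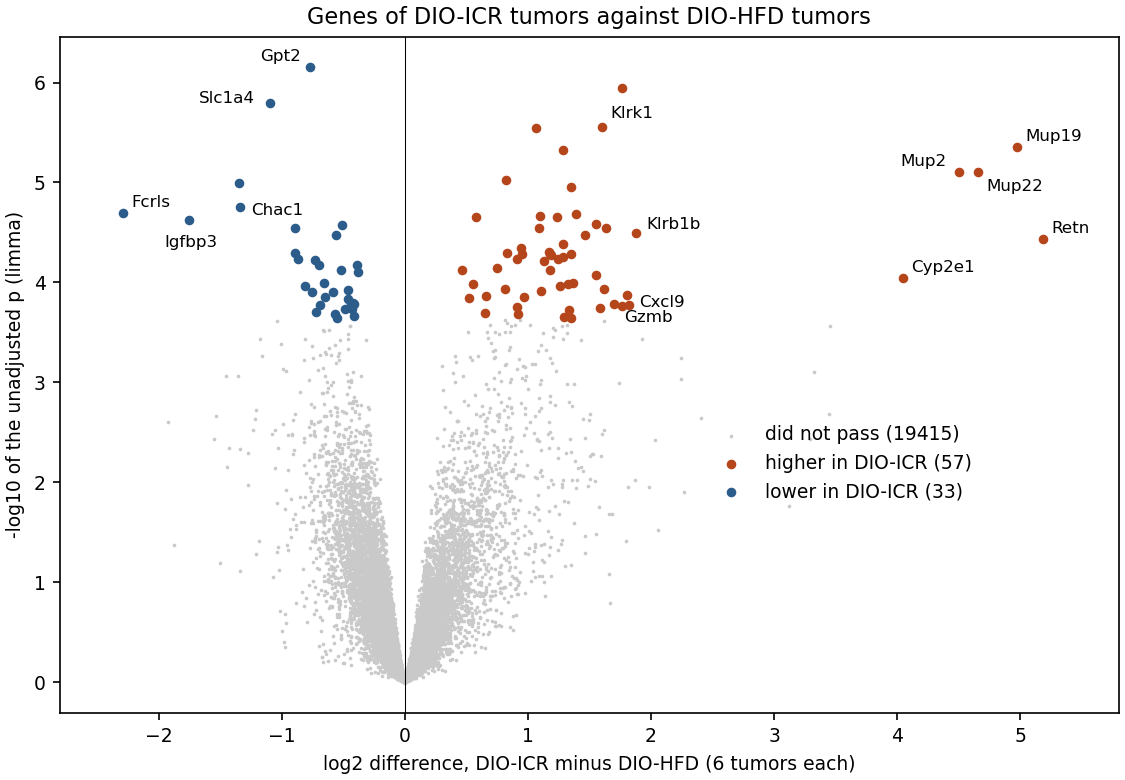
Each point is 1 of 19505 genes, with the log2 difference of DIO-ICR minus DIO-HFD tumors (6 each) across and -log10 of the unadjusted limma p up. The 57 genes that rose are red and the 33 that fell are blue, and Retn, 3 major urinary protein genes and Cyp2e1 stand apart on the right at differences above 4.

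The count of genes rested on single tumors. It was 10 without DIO-ICR replicate 2, 12 without DIO-ICR replicate 6, 24 without DIO-ICR replicate 1, 18 without DIO-HFD replicate 4 or 5, 25 without DIO-HFD replicate 6 and 30 without DIO-HFD replicate 3. It was 165 without DIO-ICR replicate 3. All 90 genes kept their direction in each of these fits, and 7 passed in all 12 fits that left out 1 tumor: Gpt2, Slc1a4, Klrk1, Mup19, Arhgef37 and a pair of gene models without proper names, Gm9733 and Gm5150.

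Genes of carcinoma cells were looked at first, which in a whole tumor do not establish the identity of the line. Vim, the intermediate filament of mesenchymal-like cells, was among the brightest genes at a median of 17.18 in DIO-ICR tumors and 17.34 in DIO-HFD tumors. The receptors Pgr (3.74 and 3.64) and Esr1 (5.40 and 4.71) were dim in both. Erbb2 read 9.70 and 10.08. The keratin gene Krt8 ran between 8.47 and 10.9 in DIO-ICR tumors and between 8.94 and 11.71 in DIO-HFD tumors, and the epithelial gene Epcam was dim, at medians of 5.44 and 4.62.

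Genes of neighboring tissue were looked at next. The mean log2 level of 23 adipocyte genes was 7.72 to 9.18 in DIO-ICR tumors (median 8.40) and 5.93 to 7.54 in DIO-HFD tumors (median 7.02), so every DIO-ICR tumor was above every DIO-HFD tumor. By sign 22 of these 23 genes were higher, against 44.2% of all genes, and the median difference was 1.21, against -0.03. Adipoq, the gene for adiponectin, read 9.68 to 12.05 in DIO-ICR tumors and 4.83 to 9.66 in DIO-HFD tumors. The low end in DIO-HFD tumors lay below the array medians (6.41 to 6.79), and no background calls were available. DIO-ICR replicates 1, 5 and 6 were more than 1 above the median array on this list (by 1.12, 1.77 and 1.30). The lymph node list of 14 genes was 4.79 to 5.03 in DIO-ICR tumors and 4.56 to 4.74 in DIO-HFD tumors other than replicate 5, which read 6.92. Skeletal muscle genes were at 4.42 to 4.58 in DIO-ICR tumors and 4.45 to 4.90 in DIO-HFD tumors.

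With the adipocyte score as a covariate 14 genes passed, 8 of them among the 90, and without the 6 tumors of any group that stood more than 1 above the median array on it, 4 passed (Six4, Fcrls, Slc1a4 and Tmem258), a fit with 3 DIO-ICR tumors. The direction of all 90 genes was kept in both. Genes that passed with the covariate included Slc1a4 (-1.19, against -1.10 without it), Gpt2 (-0.77 in both), Klrk1 (1.60 in both), Gzmb (2.19, against 1.70) and Retn (2.25, against 5.18). Retn is itself a member of the score, so part of its smaller difference was built in. The part of adipocyte RNA in the other differences was not tested.

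**Figure D2:**
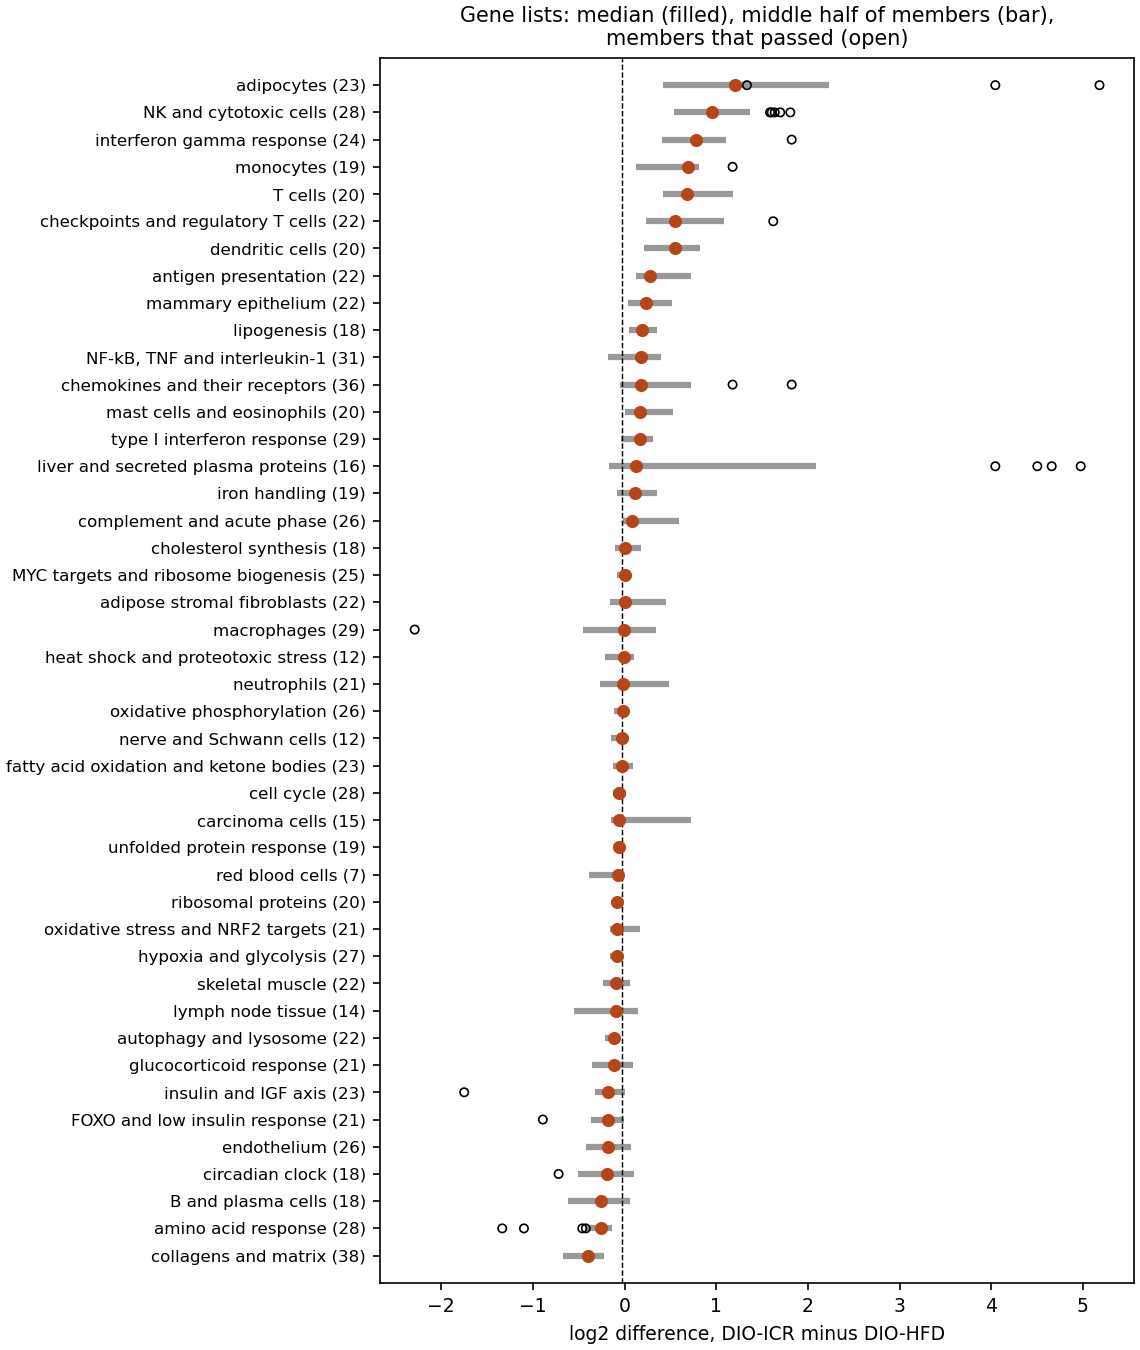
The 44 gene lists are ordered by the median log2 difference of their measured members (filled point), DIO-ICR minus DIO-HFD, with a bar from the lower to the upper quartile of the members and members that passed as open circles. The number of members measured is in parentheses, and the dashed line is the median of all genes, -0.03. Adipocyte, NK and interferon gamma lists lie at the top, and collagen and amino acid lists at the bottom.

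NK and cytotoxic genes were the lymphocyte list with the most members that passed. Of 28 measured, 5 rose, none fell and 27 had a positive difference, for a median of 0.95. Over all genes 0.292% rose, 44.2% had a positive difference and the median was -0.03. The mean level of the list was 6.75 to 7.59 in DIO-ICR tumors and 5.84 to 6.31 in DIO-HFD tumors, with no overlap.

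Klrk1 encodes NKG2D, the receptor by which NK and cytotoxic T cells recognize stressed cells. It read 8.34, 8.47 and 9.39 (lowest, median and highest) in DIO-ICR tumors, against 6.28, 7.22 and 7.76 in DIO-HFD tumors, 3.04-fold higher (log2 difference 1.60, SE 0.28, limma adjusted p = 0.0111). The groups did not overlap, and Klrk1 passed in all 12 fits that left out 1 tumor. DIO-ICR replicates 1 and 6 were the highest, at 9.39 and 9.35, and the other 4 lay within 8.34 and 8.49.

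Klrd1, the CD94 partner chain of NKG2 receptors, read 7.54, 8.25 and 8.98 in DIO-ICR tumors and 6.01, 6.56 and 7.21 in DIO-HFD tumors (difference 1.64, SE 0.33, limma adjusted p = 0.0234). Ncr1, which encodes the NK activating receptor NKp46, read 6.43, 7.10 and 7.39 in DIO-ICR tumors and 4.97, 5.39 and 5.88 in DIO-HFD tumors (1.59, SE 0.37, limma adjusted p = 0.0446). Il2rb, a chain of the interleukin-2 and interleukin-15 receptors, read 8.14, 8.79 and 9.18 in DIO-ICR tumors and 6.22, 6.69 and 7.71 in DIO-HFD tumors (1.81, SE 0.41, limma adjusted p = 0.0405). None of the 3 genes overlapped between the groups. They passed in 6, 3 and 2 of the 12 fits that left out 1 tumor.

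Gzmb, the gene of the killing protease granzyme B, read 8.46, 9.0 and 10.02 in DIO-ICR tumors, against 6.82, 7.40 and 7.99 in DIO-HFD tumors, 3.25-fold higher without overlap (1.70, SE 0.39, limma adjusted p = 0.0432, passed in 2 of 12 fits that left out 1 tumor). Klrb1b, an NK receptor gene outside the list, read 9.38, 10.49 and 11.48 in DIO-ICR tumors and 7.79, 8.74 and 9.50 in DIO-HFD tumors (1.88, SE 0.38, limma adjusted p = 0.0243), with 5 DIO-ICR tumors above all others. The pore-forming gene Prf1 (1.32, limma adjusted p = 0.0517) and Ifng, the gene of interferon gamma (1.20, limma adjusted p = 0.0771), did not pass. Ifng nevertheless did not overlap, at 5.63 to 7.01 in DIO-ICR tumors and 4.67 to 5.48 in DIO-HFD tumors.

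**Figure D3:**
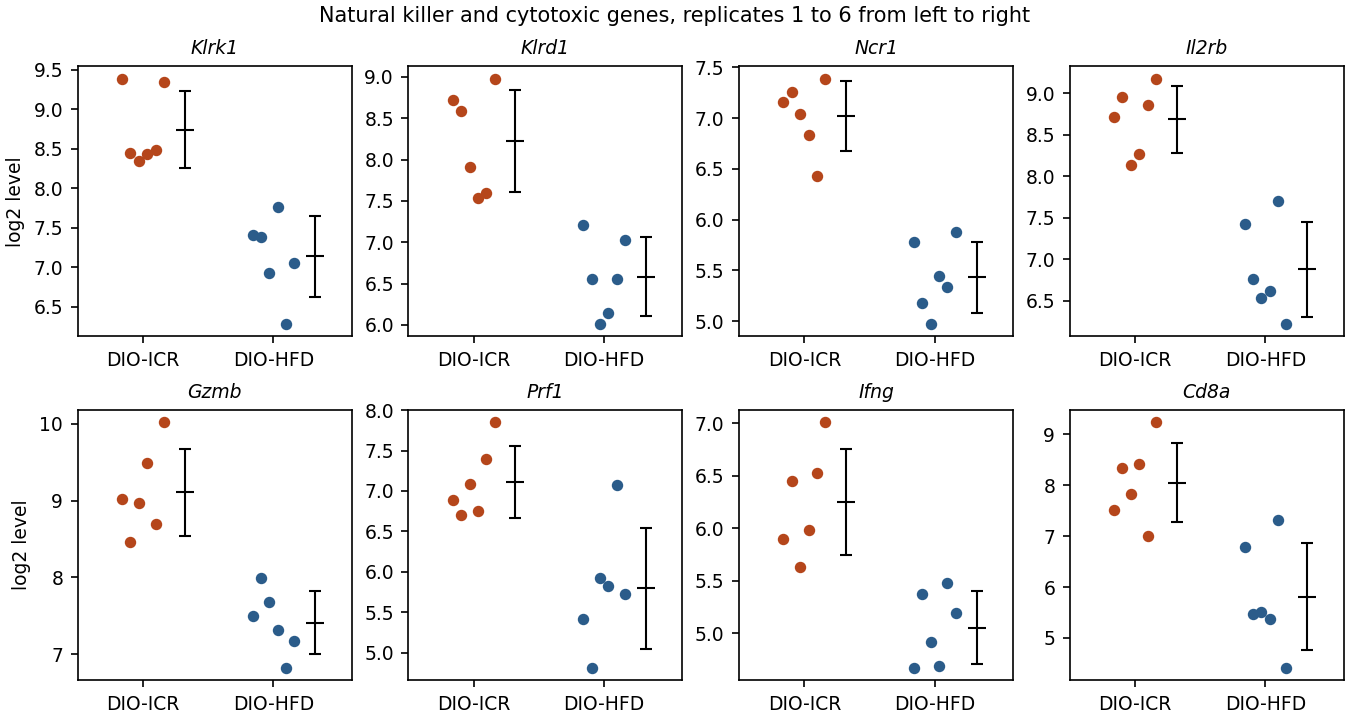
Log2 levels of 8 NK and cytotoxic genes in each DIO-ICR tumor (left, red) and DIO-HFD tumor (right, blue), with replicates 1 to 6 from left to right and the mean ± SD (n = 6) beside them. Klrk1, Klrd1, Ncr1, Il2rb, Gzmb and Ifng do not overlap between the groups, and Prf1 and Cd8a do.

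T cell genes were higher in sign for 19 of 20 members, with a median of 0.68, and none passed. By comparison, 44.2% of all genes were above 0, with a median of -0.03. Cd8a, the coreceptor of cytotoxic T cells, read 7.0, 8.09 and 9.24 in DIO-ICR tumors and 4.41, 5.49 and 7.31 in DIO-HFD tumors (2.25, 95% interval 1.00 to 3.49, limma adjusted p = 0.0952). The T cell receptor chain genes Cd3g (1.60) and Cd3e (2.03) had limma adjusted p values of 0.178 and 0.187. DIO-HFD replicate 5, which carried lymph node genes, held the highest DIO-HFD value of Cd8a, 7.31. Il18r1, the interleukin-18 receptor of T and NK cells, rose by 1.76 (SE 0.41, limma adjusted p = 0.0432), and Il12rb2, a chain of the interleukin-12 receptor, by 0.83 (SE 0.17, limma adjusted p = 0.0276). Il18r1 passed in 3 of the 12 fits that left out 1 tumor and Il12rb2 in 5. The highest DIO-HFD value of Il18r1, 7.62, was also that of replicate 5.

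Checkpoint and regulatory T cell genes had a median of 0.55 over 22 members, against -0.03 over all genes. Of these members 1 rose and none fell, where 0.292% of all genes rose and 0.169% fell. That gene was Lag3, an inhibitory receptor of activated lymphocytes, at 5.57, 6.48 and 7.10 in DIO-ICR tumors and 4.20, 5.02 and 5.12 in DIO-HFD tumors (1.62, SE 0.36, limma adjusted p = 0.0379, no overlap). Lag3 passed in 3 of the 12 fits that left out 1 tumor. The ligand gene Pdcd1lg2 (PD-L2) differed by 2.24 and Tnfrsf18 (GITR) by 1.15, with limma adjusted p values of 0.0717 and 0.0668. Pdcd1 (PD-1) differed by 1.17 and Cd274 (PD-L1) by 0.84, with limma adjusted p values of 0.178 and 0.149. Nt5e, which encodes the adenosine-producing enzyme CD73, was the lowest member at -1.43 (limma adjusted p = 0.203).

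All 24 interferon gamma response genes lay higher in DIO-ICR tumors by sign, with a median of 0.78. Of all genes, 44.2% lay above 0 and 0.292% rose, and the median was -0.03. The only list member that passed was Cxcl9, a chemokine that draws T and NK cells through CXCR3. It read 12.67, 13.39 and 14.14 in DIO-ICR tumors, against 10.58, 11.88 and 12.65 in DIO-HFD tumors (1.82, SE 0.42, limma adjusted p = 0.0432), with the groups nearly touching but not overlapping, and passed in 3 of 12 fits that left out 1 tumor. The immunoproteasome gene Psmb10 (0.94, limma adjusted p = 0.0506) and the interferon-induced GTPase gene Tgtp2 (1.11, limma adjusted p = 0.0625) did not pass. Antigen presentation genes had a median of 0.27 over 22 members and none passed, with H2-T23 at 0.93 and the class II gene H2-Eb1 at 1.62 (limma adjusted p = 0.0730 and 0.175). The type I interferon list had a median of 0.17 over 29 members and none passed, with Zbp1 at 0.71 and Mx1 at 0.61.

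Among genes of myeloid cells, Ccr2, the receptor that brings inflammatory monocytes into tissue, rose in DIO-ICR tumors. It read 11.77, 12.38 and 12.71, against 10.37, 11.30 and 11.80 in DIO-HFD tumors (1.18, SE 0.26, limma adjusted p = 0.0301), with 5 of 6 DIO-ICR tumors above all DIO-HFD tumors. It was the only monocyte gene of 19 that passed (median 0.69), and with Cxcl9 it made up the 2 chemokine and receptor genes of 36 that rose. Over all genes 0.292% rose. Fcgr4, an activating receptor for IgG on monocytes and macrophages, read 11.87, 12.41 and 13.01 in DIO-ICR tumors and 10.08, 10.86 and 11.36 in DIO-HFD tumors (1.55, SE 0.31, limma adjusted p = 0.0234, no overlap).

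Several further leukocyte genes that rose were picked out after their values were seen. Spi1, which encodes the myeloid factor PU.1, read 14.92, 15.46 and 15.73 in DIO-ICR tumors and 14.14, 14.51 and 15.10 in DIO-HFD tumors (0.81, SE 0.18, limma adjusted p = 0.0379). Receptor genes of myeloid cells that rose were Sirpb1c (1.35), Lilra6 (1.18), Clec4b1 (1.37) and Cd300c2 (0.97), all without overlap. Signaling adaptor genes were Lcp2 (1.09), Dok2 (1.11) and Sh2d2a (1.19). The pyroptosis protease gene Casp1 rose by 0.65, Aif1, a macrophage gene, by 0.91, and Hrh2, the histamine H2 receptor, by 1.29. Hrh2 passed in 1 of the 12 fits that left out 1 tumor, and Casp1 and Aif1 each in 2. The survival genes Bcl2a1a, Bcl2a1b and Bcl2a1d rose by 1.32, 1.40 and 1.26, but these copies are nearly identical and the array may not tell them apart. Ptprc, the pan-leukocyte gene CD45, differed by 0.82 and did not pass (limma adjusted p = 0.253), although its values did not overlap (13.21 to 14.16 in DIO-ICR tumors and 12.56 to 13.15 in DIO-HFD tumors).

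The macrophage list had a median of -0.01 over 29 members, with none higher and 1 lower that passed. Of all genes, 0.292% rose and 0.169% fell, and the median was -0.03. Fcrls, an Fc receptor-like gene best known from resident macrophages such as microglia, fell the most among the named genes. It read 5.91, 6.66 and 9.17 in DIO-ICR tumors, against 8.72, 9.05 and 10.50 in DIO-HFD tumors, 4.89-fold lower (-2.29, SE 0.45, limma adjusted p = 0.0234). Of the DIO-ICR tumors, 5 lay below all DIO-HFD tumors, and DIO-ICR replicate 5 lay among them at 9.17. Adgre1, the gene of the macrophage antigen F4/80, differed by 0.28 (limma adjusted p = 0.760), and Retnla, a gene of alternatively activated macrophages, by 3.45 (limma adjusted p = 0.147). Dendritic cell genes had a median of 0.55 over 20 members and none passed, with Batf3 at 1.22 and Cd209a at 1.18 (limma adjusted p = 0.0541 and 0.177). Neutrophil genes had a median of -0.02 over 21 members and none passed, with Csf3r at 0.80 (limma adjusted p = 0.260).

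Among amino acid response genes, 4 of the 28 measured fell in DIO-ICR tumors, none rose and 25 were lower in sign, with a median of -0.26. Over all genes 0.169% fell and the median was -0.03. The mean of the list was 11.36 to 11.68 in DIO-ICR tumors and 11.63 to 12.08 in DIO-HFD tumors, with 5 of 6 DIO-ICR tumors below all DIO-HFD tumors.

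Slc1a4, a transporter of alanine, serine and cysteine, read 9.09, 9.32 and 10.21 in DIO-ICR tumors, against 10.02, 10.49 and 11.01 in DIO-HFD tumors (-1.10, SE 0.18, limma adjusted p = 0.0104), and passed in all 12 fits that left out 1 tumor. DIO-ICR replicate 5 overlapped with the DIO-HFD range. Chac1, which breaks down glutathione, read 5.32, 6.09 and 6.64 in DIO-ICR tumors and 6.63, 7.28 and 8.44 in DIO-HFD tumors (-1.33, SE 0.26, limma adjusted p = 0.0234). The stress factor genes Nupr1 (-0.46, SE 0.10, limma adjusted p = 0.0379) and Cebpg (-0.42, SE 0.10, limma adjusted p = 0.0432) fell by less and did not overlap. Chac1 passed in 8 of the 12 fits that left out 1 tumor and Nupr1 in 2. Cebpg passed in 0 of the 12, with limma adjusted p values of 0.0530 to 0.0998. Other members did not pass, among them the serine synthesis gene Psat1 (-0.40), the asparagine synthetase gene Asns (-0.31) and Trib3 (-0.63).

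Outside the list, Gpt2, which makes alanine from pyruvate and glutamate in mitochondria, had the smallest p of all genes. It read 9.92, 10.06 and 10.17 in DIO-ICR tumors, against 10.49, 10.88 and 11.07 in DIO-HFD tumors (-0.77, SE 0.12, limma adjusted p = 0.0104), without overlap and with a pass in all 12 fits that left out 1 tumor. Pck2, the mitochondrial form of phosphoenolpyruvate carboxykinase, read 9.62, 10.16 and 10.44 in DIO-ICR tumors and 10.49, 10.90 and 11.27 in DIO-HFD tumors (-0.81, SE 0.18, limma adjusted p = 0.0368, no overlap). Cars, the cytosolic cysteine tRNA ligase, fell by 0.44 on the log2 scale (limma adjusted p = 0.0432) and was picked out after its values were seen. Pck2 passed in 4 of the 12 fits that left out 1 tumor and Cars in 2. Genes of the unfolded protein response, a neighboring stress program, had a median of -0.06 over 19 members and none passed, with Herpud1 at -0.31 (limma adjusted p = 0.394).

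Factors of the ATF4 and C/EBP families bind composite sites with the letters TGATGNAA. These letters were searched on both strands of the RefSeq promoter windows (GRCm38.p6, 250 bases before to 50 after each start), and 8 of 24 amino acid response members with a window held them, against 3.95% of 15691 tested genes with a window. A match is a description of these letters and not evidence of binding. The members were chosen as genes of this ATF4 program, so their higher share depends on that choice and says nothing about these tumors. The windows of 4 genes that fell and held a match are shown, so that the site can be seen in its context. Each is on the strand of its gene, 5′ to 3′, with the match in capitals. It reads from the opposite strand in all 4.
Chac1 (chr2:119350992-119351291, plus strand): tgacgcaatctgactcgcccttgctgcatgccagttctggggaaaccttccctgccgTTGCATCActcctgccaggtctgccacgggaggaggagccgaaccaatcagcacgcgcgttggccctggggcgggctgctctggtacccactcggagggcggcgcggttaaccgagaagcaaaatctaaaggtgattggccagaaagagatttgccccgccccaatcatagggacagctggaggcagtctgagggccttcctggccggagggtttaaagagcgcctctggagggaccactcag
Slc1a4 (chr11:20332664-20332963, minus strand): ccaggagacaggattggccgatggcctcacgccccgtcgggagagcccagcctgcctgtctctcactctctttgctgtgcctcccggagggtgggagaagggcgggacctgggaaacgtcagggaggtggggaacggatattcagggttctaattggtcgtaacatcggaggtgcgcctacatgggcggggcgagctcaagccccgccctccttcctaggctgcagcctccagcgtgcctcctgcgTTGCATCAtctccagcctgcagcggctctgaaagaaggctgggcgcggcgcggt
Nupr1 (chr7:126625421-126625720, minus strand): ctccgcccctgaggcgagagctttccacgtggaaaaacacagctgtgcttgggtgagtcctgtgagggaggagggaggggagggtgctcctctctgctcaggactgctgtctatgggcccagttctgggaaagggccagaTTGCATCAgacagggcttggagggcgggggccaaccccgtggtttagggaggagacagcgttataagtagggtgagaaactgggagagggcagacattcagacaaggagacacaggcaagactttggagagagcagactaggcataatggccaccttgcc
Pck2 (chr14:55540016-55540315, plus strand): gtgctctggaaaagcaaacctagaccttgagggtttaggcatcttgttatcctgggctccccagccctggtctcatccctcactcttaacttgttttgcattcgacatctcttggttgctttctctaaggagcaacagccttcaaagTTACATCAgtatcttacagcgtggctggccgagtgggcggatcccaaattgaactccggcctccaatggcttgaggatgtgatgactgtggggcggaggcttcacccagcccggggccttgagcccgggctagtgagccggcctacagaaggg
The match began at position -193 from the start site in Chac1, -4 in Slc1a4, -110 in Nupr1 and -103 in Pck2. The first 3 share the same 8 letters. No match was found in the windows of Cebpg and Gpt2.

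**Figure D4:**
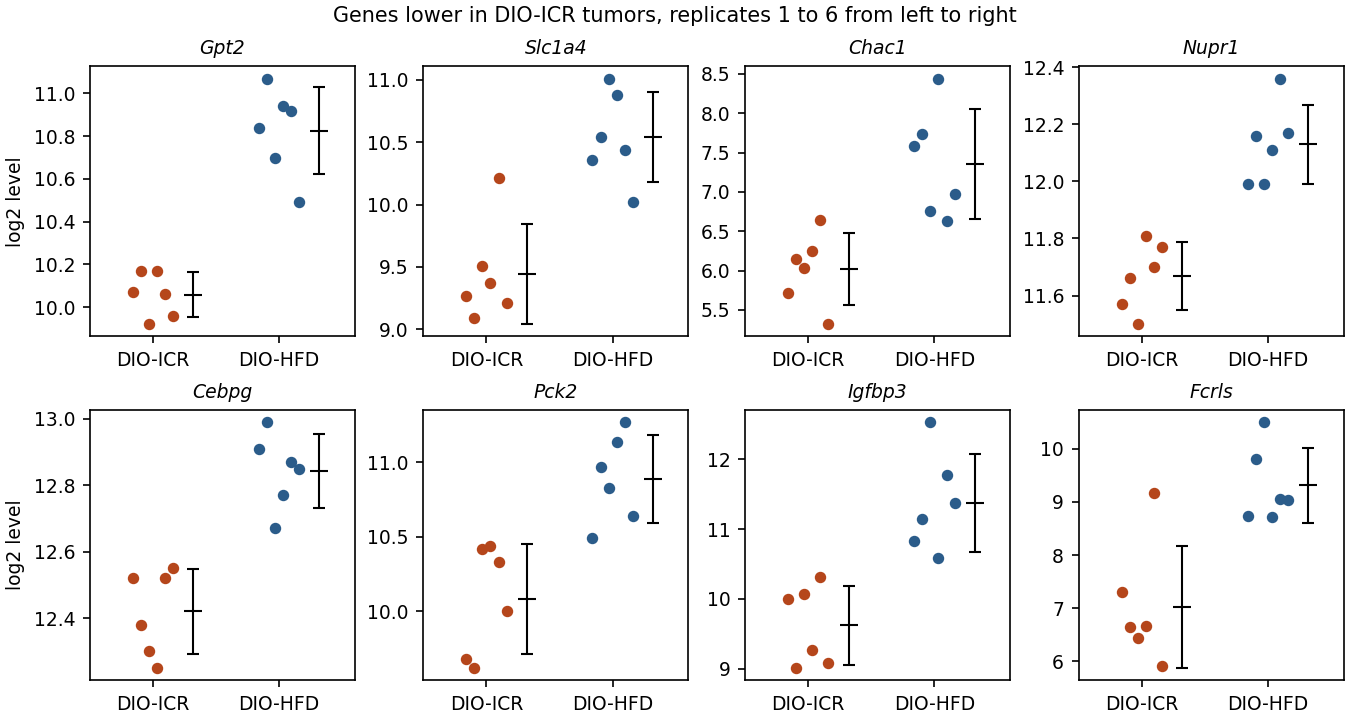
Log2 levels of 8 genes that fell, in each DIO-ICR tumor (left, red) and DIO-HFD tumor (right, blue), with replicates 1 to 6 from left to right and the mean ± SD (n = 6) beside them. Gpt2, Nupr1, Cebpg, Pck2 and Igfbp3 do not overlap between the groups, and DIO-ICR replicate 5 lies within the DIO-HFD range for Slc1a4, Chac1 and Fcrls.

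Growth factor, insulin and clock genes included 3 that fell, where 0.169% of all genes fell and the median of all genes was -0.03. Igfbp3, which binds insulin-like growth factors in blood and tissue, read 9.01, 9.64 and 10.31 in DIO-ICR tumors, against 10.59, 11.26 and 12.53 in DIO-HFD tumors, 3.36-fold lower without overlap (-1.75, SE 0.35, limma adjusted p = 0.0234). It was the only one of 23 members of the insulin and IGF list that passed (median -0.18), and Igf1 itself differed by -0.55 (95% interval -1.45 to 0.35, limma adjusted p = 0.736). Gadd45a, a stress and FOXO target gene, read 10.84, 11.12 and 11.62 in DIO-ICR tumors and 11.68, 12.02 and 12.42 in DIO-HFD tumors (-0.89, SE 0.19, limma adjusted p = 0.0276, no overlap), and was the only one of 21 FOXO list members that passed. Nr1d2, which encodes the clock repressor REV-ERB beta, read 11.03, 11.15 and 12.14 in DIO-ICR tumors and 11.46, 12.09 and 12.41 in DIO-HFD tumors (-0.72, SE 0.17, limma adjusted p = 0.0466). It passed in 3 of the 12 fits that left out 1 tumor. Its partner Nr1d1 (-0.59) and Per3 (-0.65) did not pass (limma adjusted p = 0.239 and 0.193), and the sources used here do not give the hour at which tumors were taken. Of 21 glucocorticoid genes none passed, with Fkbp5 at -0.35 (limma adjusted p = 0.429).

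Other genes with large falls were Kcne3, a potassium channel subunit (-1.35, SE 0.25, limma adjusted p = 0.0178, no overlap), Six4, a homeobox gene (-0.87, limma adjusted p = 0.0276), and Acsf2, an acyl-CoA synthetase (-0.76, limma adjusted p = 0.0382). Dennd5b (-0.73), Col24a1, a minor fibrillar collagen (-0.69), Bex3 (-0.69) and Txndc8 (-0.66) fell as well. Kcne3 passed in 10 of the 12 fits that left out 1 tumor. Six4 and Dennd5b each passed in 5, Acsf2 and Col24a1 each in 3, and Bex3 and Txndc8 each in 2. Txndc8 and Col24a1 were dim, at medians of 3.44 and 4.73 in DIO-ICR tumors and 4.24 and 5.41 in DIO-HFD tumors.

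Matrix genes were lower in sign for 36 of 38 members, with the lowest median of the 44 lists, -0.40, and none passed. By comparison, 44.2% of all genes were above 0, with a median of -0.03. Pdgfrb, the receptor of pericytes and fibroblasts, differed by -0.62 and Col5a1 by -0.82 (limma adjusted p = 0.107 and 0.191). Col1a1, the main collagen chain, read 9.40, 10.37 and 12.44 in DIO-ICR tumors and 9.80, 11.51 and 13.40 in DIO-HFD tumors (-1.21, 95% interval -2.42 to 0.01). Endothelial genes had a median of -0.18 over 26 members and none passed, with Apln at -1.21 and Emcn at -0.80. Cell cycle genes had a median of -0.06 over 28 members and none passed. Mki67, the proliferation marker, read 13.32 to 13.90 in DIO-ICR tumors and 13.38 to 13.78 in DIO-HFD tumors (0.03, 95% interval -0.22 to 0.28), and its sign turned under median centring.

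Fat cell genes were among those with the largest differences. Retn, which encodes the adipocyte hormone resistin, read 7.99, 10.27 and 10.60 in DIO-ICR tumors, against 3.45, 4.78 and 5.74 in DIO-HFD tumors, higher without overlap (5.18, SE 1.06, limma adjusted p = 0.0255). It passed in 5 of 12 fits that left out 1 tumor. Cyp2e1, a cytochrome of liver and fat cells, read 5.68, 7.73 and 9.01 in DIO-ICR tumors and 2.81, 3.59 and 4.37 in DIO-HFD tumors (4.04, SE 0.89, limma adjusted p = 0.0343, no overlap). Pparg, the master factor of fat cell formation, read 8.64, 9.19 and 9.92 in DIO-ICR tumors and 7.56, 7.85 and 8.40 in DIO-HFD tumors (1.33, SE 0.31, limma adjusted p = 0.0446, no overlap). Cyp2e1 and Pparg each passed in 2 of the 12 fits that left out 1 tumor. With the adipocyte score as a covariate Cyp2e1 differed by 1.96 and Pparg by 0.86, and neither passed (limma adjusted p = 0.243 and 0.318). Both genes are members of that score, so part of this shrinkage was built in. The DIO-HFD levels of Retn and Cyp2e1 were as low as those of dim genes, and background calls were not in the file used, so no fold is given for them. Retn, Cyp2e1 and Pparg were the 3 of 23 adipocyte genes that passed, where 0.292% of all genes rose. None of the other 20 passed. Adipoq differed by 3.12 (95% interval 0.59 to 5.65, limma adjusted p = 0.329), Car3 by 3.29 (limma adjusted p = 0.186) and Gpd1 by 2.41 (limma adjusted p = 0.152), all without overlap.

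Lep, the gene of the satiety hormone leptin, stood apart from these genes. It read 6.01, 6.33 and 8.63 in DIO-ICR tumors and 4.52, 6.98 and 8.0 in DIO-HFD tumors (0.27, 95% interval -1.20 to 1.74, limma adjusted p = 0.948), and its median was the lower one in DIO-ICR tumors. Its sign turned in 5 of the other settings tried. Lipid synthesis genes had a median of 0.19 over 18 members and none passed, with Elovl6 at 0.36 and Dgat2 at 1.79 (limma adjusted p = 0.347 and 0.433). Fatty acid oxidation and ketone body genes had a median of -0.03 over 23 members and none passed, with Oxct1, which lets cells use ketone bodies, at -0.29 (limma adjusted p = 0.260). Ppargc1b, a coactivator of mitochondrial genes that was picked out after its values were seen, rose by 0.92 (limma adjusted p = 0.0473). It was dim in DIO-HFD tumors, at 3.81 to 4.58, and passed in 1 of the 12 fits that left out 1 tumor.

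Major urinary protein genes, which encode lipid-binding proteins secreted by liver and, in mice, also made by fat tissue, rose next to Retn. Mup19 read 8.96, 11.12 and 12.81 in DIO-ICR tumors, against 4.60, 5.92 and 7.40 in DIO-HFD tumors, higher without overlap (4.98, SE 0.88, limma adjusted p = 0.0130), and passed in all 12 fits that left out 1 tumor. Mup22 (4.66) and Mup2 (4.50) rose likewise (limma adjusted p = 0.0172 for both) and passed in 11 of the 12. These genes belong to a cluster of nearly identical copies on chromosome 4, and the probe sets may not tell them apart. The liver and plasma protein list of 16 genes, of which Mup19, Mup22, Mup2 and Cyp2e1 rose, had a median of 0.13, and its mean was 4.84 to 5.90 in DIO-ICR tumors and 3.95 to 4.59 in DIO-HFD tumors. Of all genes, 0.292% rose, and the median was -0.03. With the adipocyte score as a covariate none of the 3 Mup genes passed, at 3.70 for Mup19 (limma adjusted p = 0.106), 3.38 for Mup22 and 3.33 for Mup2 (limma adjusted p = 0.130 for both). DIO-ICR replicate 5, the highest of its group on that score at 9.18, held the lowest Mup19, 8.96, while the next highest on the score, replicates 6, 1 and 4, held the highest Mup19 levels, at 12.43, 12.81 and 11.66.

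**Figure D5:**
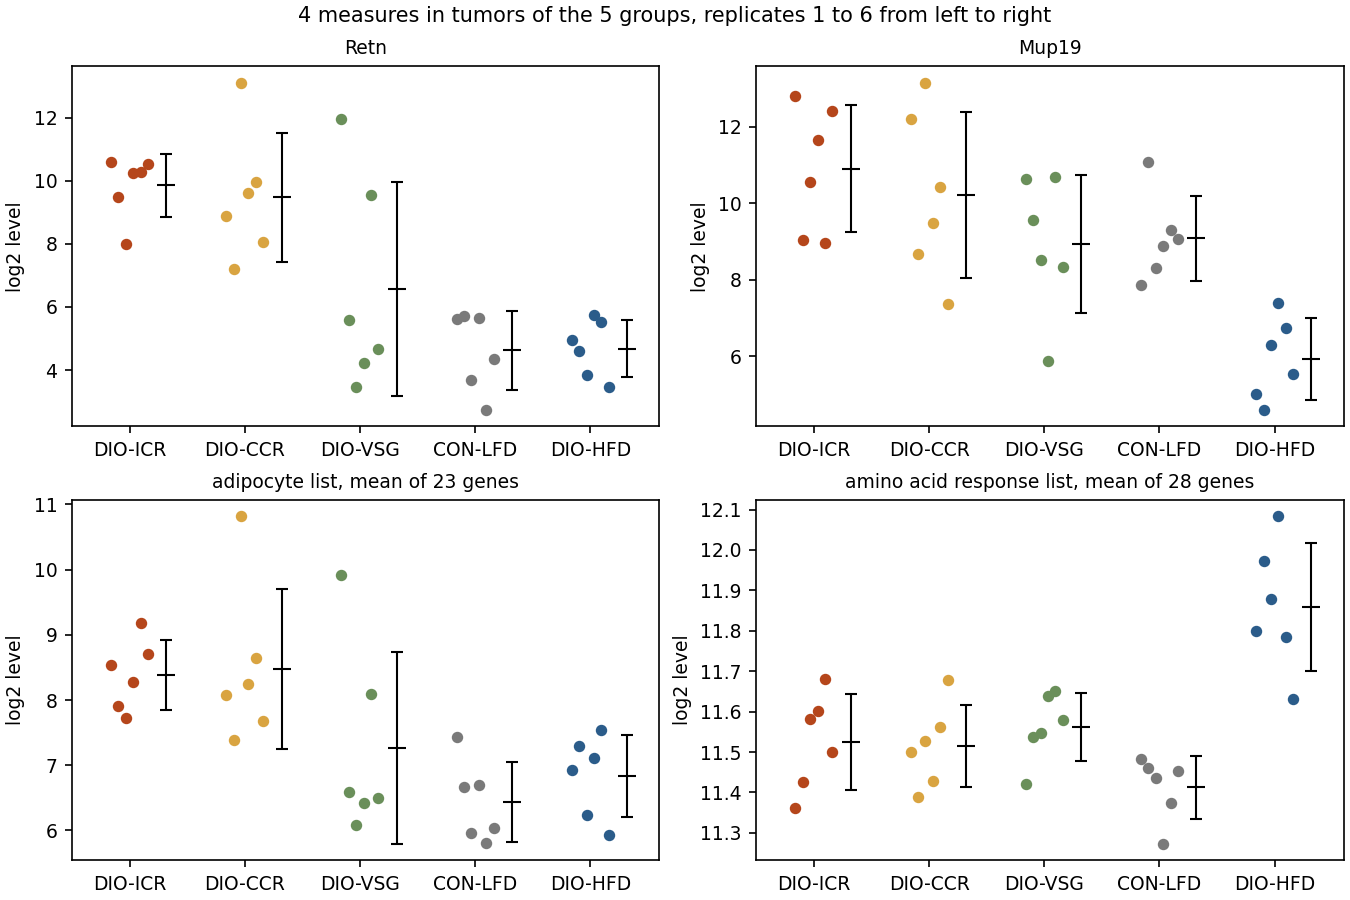
Log2 levels of Retn and Mup19 and the mean log2 level of the adipocyte and amino acid response lists in each tumor of the 5 groups (replicates 1 to 6 from left to right, mean ± SD, n = 6). DIO-HFD tumors are the lowest by median for Mup19 (5.92) and the highest for the amino acid list (11.84), and DIO-ICR and DIO-CCR tumors are the highest for Retn (10.27 and 9.25).

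The other groups show how far these levels were particular to DIO-ICR tumors. In direct tests against DIO-CCR tumors 0 genes passed (0% of 19505), with the smallest limma adjusted p at 0.770 and 928 genes at an unadjusted p under 0.05. Retn had medians of 10.27 in DIO-ICR and 9.25 in DIO-CCR tumors (difference 0.39, SE 1.06), Klrk1 of 8.47 and 8.67 (0.19, SE 0.28) and Slc1a4 of 9.32 and 9.40 (0.00, SE 0.18). Ifng was 6.22 in DIO-ICR tumors and 5.19 in DIO-CCR tumors (0.93, SE 0.31, limma adjusted p = 0.883). A p above the threshold does not show that the restricted groups were alike.

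Against DIO-VSG tumors 6 genes passed (0.0308%). S100a9 and Retnlg, which neutrophils express, fell by 3.95 and by 3.90 on the log2 scale (limma adjusted p = 0.0298 and 0.0445). S100a9 medians were 6.09 in DIO-ICR tumors and 10.32 in DIO-VSG tumors, beside 6.49 in DIO-HFD tumors. Plat, the tissue plasminogen activator, was lower in DIO-ICR tumors by -1.45 (limma adjusted p = 0.0298) and Txndc8 by -0.80, while Mmp25, a membrane-anchored metalloproteinase, was higher by 1.28 (limma adjusted p = 0.0445). Mmp25 also rose against DIO-HFD tumors (1.23, limma adjusted p = 0.0234), and Sgpp1, the sixth gene, was higher by 0.62 than in DIO-VSG tumors. The count was 0 without DIO-ICR replicate 2, 3 or 5, 1 without replicate 4 or 6 and 7 without replicate 1. It was also 0 without DIO-VSG replicate 2, 4 or 6.

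Against never-obese CON-LFD tumors 307 genes passed (1.57%), 163 higher and 144 lower in DIO-ICR tumors. The count was 150 without DIO-ICR replicate 2, 188 without replicate 3, 144 without replicate 5 and 157 without replicate 6. Leaving out a CON-LFD tumor gave 59 without replicate 3, 117 without replicate 4 and 170 without replicate 2 or 5. Among the largest differences that passed were Retn (5.24), Car3 (4.91), Cyp2e1 (4.14), S100a9 (-4.11) and Retnla (3.99). Ncr1 had medians of 7.10 in DIO-ICR tumors and 5.33 in CON-LFD tumors (1.69, limma adjusted p = 0.0193), and Igfbp3 of 9.64 and 11.08 (-1.41, limma adjusted p = 0.0355). For the amino acid response list the medians of the list mean were 11.54 for DIO-ICR tumors, 11.51 for DIO-CCR tumors, 11.56 for DIO-VSG tumors, 11.45 for CON-LFD tumors and 11.84 for DIO-HFD tumors. Slc1a4 had medians of 9.32, 9.40, 9.53, 9.47 and 10.49 in the same order, and Chac1 of 6.09, 6.41, 6.35, 6.01 and 7.28, so the levels of DIO-ICR tumors lay with those of the other 3 groups. All of these comparisons share the DIO-ICR tumors, and those with DIO-HFD tumors share the DIO-HFD tumors.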

How the data were processed

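Total RNA of 30 tumors, 1 array each, was labelled with the WT PLUS kit and hybridized to Mouse Clariom S arrays in a peg plate. The authors normalized the scans with signal space transformation and robust multichip averaging and deposited log2 values, which were used as given (22206 probe sets, 0 missing, values 1.48 to 18.57, array medians 6.41 to 6.79). Counts and background flags were not in the file used, and the number of arrays limits the precision. The platform table gave 19572 probe sets 1 symbol and 2634 none; the brightest probe set was kept for each symbol. A mean per group was fitted with limma 3.58.1 in R 4.3.3 over all 30 arrays (25 residual df, prior df 3.43), two-sided, with Benjamini-Hochberg adjustment over 19505 genes. The fit was tested on simulated data. Named were the 15 largest changes in each direction that passed, 2 to 4 members of each list with the smallest p, 5 genes per direct comparison and a panel of 15; others were picked out after their values were seen. Members and lists were chosen with earlier results of these data known. List genes without a probe set are not analysed here. No batch or scan date is given in the sources used here, and p-values measure the spread between mice. Alternatives were other scalings, filters, probe sets, fits and left-out tumors. Promoter sequences are from RefSeq (GRCm38.p6).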

Additional observations from a re-analysis of the deposited data

Results flagged for a closer look

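Single tumors stood apart within their group for 9 values among 272 groups of 6, where chance would mark about 1 in 20. In DIO-ICR tumors these were the highest values of Nr1d2 in replicate 3 (12.14, next 11.23), Lep in replicate 5 (8.63, next 6.85), Oxct1 in replicate 6 (14.09, next 13.71) and Plat in replicate 1 (11.52, next 10.77). In DIO-HFD tumors they were the lowest values of H2-Eb1 in replicate 6 (9.18, next 10.46), Herpud1 in replicate 5 (13.07, next 13.23) and Krt8 in replicate 1 (8.94, next 10.72), and the highest of Cpa3 in replicate 1 (9.66, next 9.15) and Ppargc1b in replicate 5 (4.58, next 4.08).

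Genes named in the text were also compared directly with the other groups, and some differed by limma's adjusted p over all genes. Against DIO-VSG tumors, DIO-ICR tumors were higher for Mmp25 (1.28) and Sgpp1 (0.62), and lower for Txndc8 (-0.80), Plat (-1.45), S100a9 (-3.95) and Retnlg (-3.90). Of genes that also passed against DIO-HFD tumors, those that differed from CON-LFD tumors were higher in DIO-ICR tumors for the fat cell genes Retn (5.24), Cyp2e1 (4.14) and Pparg (1.22), and for the leukocyte genes Ncr1 (1.69), Spi1 (0.80), Mmp25 (0.94), Lilra6 (1.13), Cd300c2 (0.90), Bcl2a1a (1.25), Bcl2a1b (1.29) and Bcl2a1d (1.29). Those lower in DIO-ICR tumors were Igfbp3 (-1.41), Acsf2 (-0.68), Col24a1 (-1.0) and Bex3 (-0.69).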

How the results depend on the processing

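The 90 genes became 143 (92 higher, 51 lower) without the 30% dimmest genes and 209 (128 higher, 81 lower) with array weights, which kept all 90. Fitting only the groups compared gave 98 genes, with 14 lower (85.7% higher, against 63.3%), and with 51 of the 90 among them. With the adipocyte score as a covariate 14 passed (6 higher, 8 lower), and without adipocyte-rich tumors, chosen after seeing the data, 4 (1 higher, 3 lower). Without tumors holding lymph node or muscle genes 96 passed, 51 of them among the 90. Median centring, which moved the median of all genes to -0.08, gave 79, quantile normalization 110, and unmoderated standard errors 69. Leaving out 1 tumor gave 10 to 165 genes, 8 to 110 higher and 2 to 55 lower. Against DIO-VSG tumors the 6 genes became 2 over all probe sets, 3 with array weights, 25 with the adipocyte covariate, and 0 without tumors holding lymph node or muscle genes or adipocyte-rich tumors, and 0 to 7 on leaving out 1 tumor of either group compared. Against CON-LFD tumors the 307 became 474 with array weights, 21 with the adipocyte covariate and 55 without adipocyte-rich tumors, and 59 to 359 on leaving out 1 tumor of either group. Leaving out tumors of DIO-CCR, DIO-VSG and CON-LFD was added after seeing the data. Signs turned only in genes that had not passed. With the adipocyte covariate these were Ltf (-0.085), Mki67 (-0.14), Adipoq (-0.23), Lep (-1.53) and Dgat2 (-0.36), and without adipocyte-rich tumors Adgre1 (-0.10), Mki67 (-0.068), Lep (-0.18) and Retnlg (0.038). Adipoq and Lep are members of the adipocyte score, so part of their change with the covariate was built in. Mki67 also turned with median centring (-0.023). The cause was not tested. On leaving out 1 tumor, differences ranged from -0.038 to 0.080 for Mki67, -0.11 to 0.58 for Lep and -0.32 to 0.23 for Retnlg. No paired analysis was possible because the labels give no replicate numbers shared between groups.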
